A study of Mus musculus with 13 samples.

Results

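The 10 genes described here are the chemokine Cxcl12, its receptors Cxcr4 and Ackr3, and 7 further chemokine ligands (Ccl2, Ccl7, Ccl8, Ccl6, Cxcl1, Cxcl10 and Cx3cl1), out of 36109 genes with values. They were listed by name, for their family and their place in Cxcl12 signalling, and the list was drawn up with earlier results of these data known. Aortic endothelial cell (EC) RNA was compared between 3 Hmox2-/- mice and 3 Hmox2+/+ littermates, and whole-heart RNA between 3 Hmox2-/- and 4 Hmox2+/+ mice, all kept in room air with no further treatment. The sequenced mice were young, and their sex is not given in the sources used here. EC and heart samples are described as matched, but no label says which libraries come from the same mouse. The Hmox2-/- mice carry a deletion in every cell of the body, so a difference in an aortic or cardiac library need not start in that tissue. EC RNA was obtained by flushing lysis reagent through the aortic lumen, and no cell sorting was done.

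Chemokines are small secreted proteins that guide leukocytes along concentration gradients through G protein-coupled receptors. Cxcl12 is made constitutively by endothelial and stromal cells, holds and attracts cells that carry Cxcr4, and is taken up and degraded by Ackr3, an atypical receptor that does not signal through G proteins and so limits the ligand available to Cxcr4. Ccl2 and Ccl7 attract monocytes, Ccl8 is a related ligand encoded near them, Ccl6 is a macrophage product of mice, Cxcl1 attracts neutrophils, Cxcl10 is induced by interferons and attracts T cells, and Cx3cl1 is anchored in the endothelial membrane and binds Cx3cr1 on monocytes.

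Cxcl12 lies on the plus strand of chromosome 6 (117144945 to 117158328, GRCm39, GENCODE M39) and makes several proteins by splicing to different last exons. The 3 annotated coding transcripts share their code up to position 117150539 and then part. They are shown because the transcripts moved differently between the genotypes in aortic ECs. The last 30 shared bases are in lower case, and the bases that belong to 1 transcript, with its stop codon, are in capitals. They were read from the M39 transcript sequences.
Cxcl12-202: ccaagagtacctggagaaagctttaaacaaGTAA
Cxcl12-203: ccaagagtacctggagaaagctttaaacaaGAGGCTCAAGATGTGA
Cxcl12-201: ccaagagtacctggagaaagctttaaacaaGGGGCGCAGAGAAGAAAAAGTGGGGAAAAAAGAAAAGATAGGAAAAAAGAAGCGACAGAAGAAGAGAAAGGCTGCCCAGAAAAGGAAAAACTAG
Cxcl12-202 encodes 89 codons, Cxcl12-203 encodes 93 and Cxcl12-201 encodes 119. These are known as the alpha, beta and gamma forms. The tail of the gamma form is rich in lysine and arginine codons and is known to bind heparan sulfate tightly, which keeps this form close to the cells that make it.

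The bases before the start of transcription were searched for short motifs in the 8 members with an entry in the RefSeq promoter table (GRCm38.p6, 250 bases before the start). Cxcl12 is shown as a ligand that rose in ECs, as Ccl2 and Ccl6 also did, and Ackr3 as its receptor that rose in heart. Ccl8 is shown for the largest fold change in heart, and Cxcl10 as an inducible ligand that passed no test with all libraries. Capitals mark matches to GGGCGG (the GC box), to the TATA box spelled as TATAAA, to TGANTCA (the AP-1 site) or to the kappaB consensus. The TATA box was searched on the sense strand and the others on both strands.
Cxcl12 promoter, chr6:117168285-117168534, plus strand: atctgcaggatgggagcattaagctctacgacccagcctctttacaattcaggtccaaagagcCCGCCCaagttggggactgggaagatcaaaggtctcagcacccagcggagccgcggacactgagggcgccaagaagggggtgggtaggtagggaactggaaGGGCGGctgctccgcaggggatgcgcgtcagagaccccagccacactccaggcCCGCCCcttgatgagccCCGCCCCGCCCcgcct
Ackr3 promoter, chr1:90203730-90203979, plus strand: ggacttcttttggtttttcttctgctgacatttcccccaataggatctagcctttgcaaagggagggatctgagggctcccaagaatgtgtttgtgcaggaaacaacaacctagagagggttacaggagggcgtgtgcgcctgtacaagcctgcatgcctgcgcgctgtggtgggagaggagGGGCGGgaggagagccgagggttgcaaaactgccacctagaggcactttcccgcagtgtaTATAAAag
Ccl8 promoter, chr11:82114935-82115184, plus strand: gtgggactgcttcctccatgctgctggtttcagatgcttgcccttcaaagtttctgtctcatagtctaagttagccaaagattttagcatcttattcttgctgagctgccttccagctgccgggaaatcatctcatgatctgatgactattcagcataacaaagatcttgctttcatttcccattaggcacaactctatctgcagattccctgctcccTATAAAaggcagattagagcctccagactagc
Cxcl10 promoter, chr5:92348890-92349139, minus strand: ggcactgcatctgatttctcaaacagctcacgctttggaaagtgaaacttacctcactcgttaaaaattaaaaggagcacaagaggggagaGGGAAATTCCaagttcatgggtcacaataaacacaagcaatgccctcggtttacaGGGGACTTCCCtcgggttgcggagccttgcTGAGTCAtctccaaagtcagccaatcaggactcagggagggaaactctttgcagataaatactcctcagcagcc
The Cxcl12 window held 5 GC boxes, a pair of which overlap, and no TATA box. The Ackr3 window held 1 GC box and 1 match to TATAAA, whose first base was at -8 from the start. The Ccl8 window held 1 match to TATAAA, at -32. The Cxcl10 window held 3 kappaB matches, of which a pair overlap, and 1 AP-1 site. Of the members not shown, Cxcl1 held 2 overlapping kappaB matches and 1 ACGTG. These letters are a form of the core bound by hypoxia-inducible factors, and only this spelling was searched. Cxcr4 held 3 GC boxes and 1 match to TATAAA (at -30), Cx3cl1 held 1 of each (TATAAA at -6), and Ccl6 held no match. Among 32851 promoters of the same length, a GC box was found in 32.7%, ACGTG in 16.6%, a TATA box in 7.59%, the kappaB consensus in 7.25% and an AP-1 site in 6.75%. A match describes letters in the window and was not linked to any difference below.

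The values are Kallisto estimated counts summed per gene. CPM are these counts relative to library size after TMM normalization, TPM are also divided by transcript length and serve to compare genes, and a gene passed when its Benjamini-Hochberg adjusted p over all tested genes, from edgeR's quasi-likelihood test within the tissue, was at most 0.05. Libraries held 26067147 to 31619776 estimated counts, apart from the heart library Hmox2+/+ 1 with 7268626. Hmox2 itself was 63.9 to 76.2 CPM in ECs of Hmox2+/+ mice and 12.6 to 14.7 CPM in ECs of Hmox2-/- mice, and 37.3 to 42.5 against 7.53 to 8.90 CPM in heart. Per length the fall was smaller, from 57.7 ± 5.6 to 25.0 ± 6.6 TPM in ECs (mean ± SD, n = 3 each) and from 29.4 ± 3.85 (n = 4) to 17.2 ± 1.26 TPM (n = 3) in heart. The genotypes did not overlap on either scale, so every library went with its label. The EC libraries held markers of other cells of the aorta as well: the summed CPM of 10 endothelial markers was 3143 to 6722, of 7 smooth muscle markers 1063 to 6440, of 9 fibroblast markers 3746 to 8245 and of 7 adipocyte markers 8393 to 12760. In such bulk RNA, fewer cells of a type and less RNA per cell cannot be told apart, here and in every result below.

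In aortic ECs, 3 of the 10 members passed the test, Cxcl12, Ccl2 and Ccl6, and all were higher in Hmox2-/- mice. Among the 15301 genes tested in ECs, 10% passed as higher and 8.06% as lower. All 3 also had a log2 fold change of at least 1, and 5.39% of all genes passed as higher with that size. In heart, 4 of the 9 members tested passed, Ackr3, Ccl8, Cx3cl1 and Ccl6, again all higher, where 17.2% of 13816 genes passed as higher and 16.2% as lower. Of these 4, only Ccl8 also had a log2 fold change of at least 1, and 2.66% of all genes passed as higher with that size. Ccl2 reached that size in heart (1.28) without passing. The median log2 fold change of the members was 0.83 in ECs and 0.51 in heart, beside medians over all genes of -0.02 and -0.01. Ccl6 was the 1 member that passed in both tissues.

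**Figure D1:**
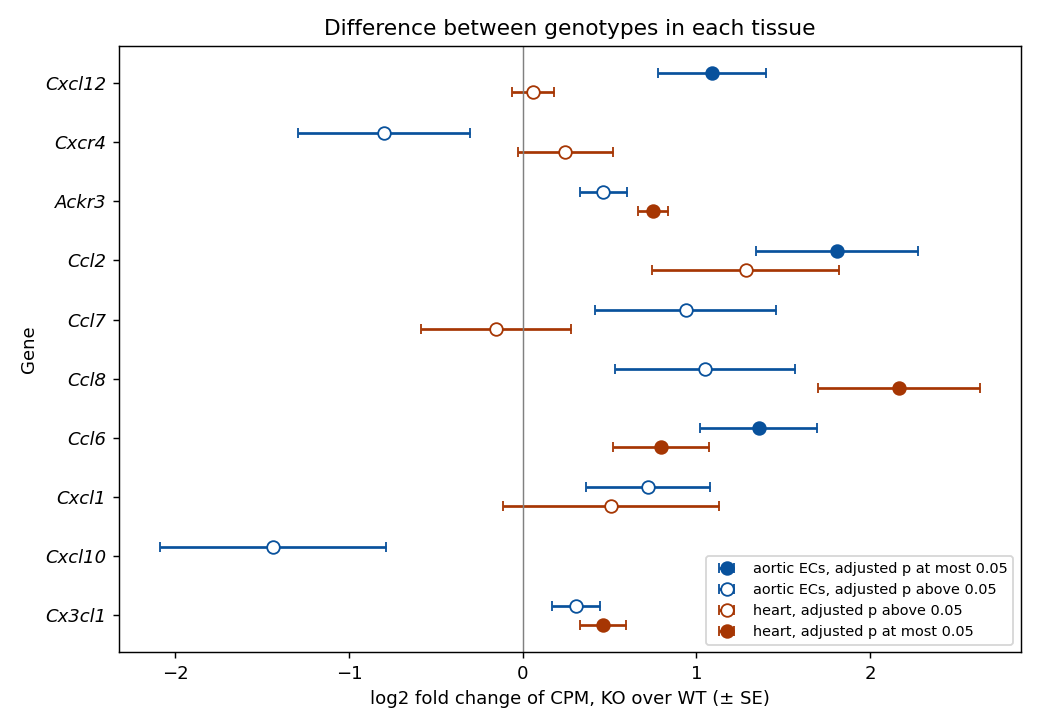
Log2 fold change of CPM in Hmox2-/- over Hmox2+/+ mice for each gene, with its SE (whiskers), in aortic ECs (blue) and heart (brown); filled points had an adjusted p of at most 0.05. Cxcl12 lies at 1.09 in ECs and 0.06 in heart, Ackr3 and Cx3cl1 lie to the right of 0 in both tissues, and Cxcl10 was below the filter in heart.

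Cxcl12, the ligand of Cxcr4 and Ackr3, was 150, 106 and 257 CPM in ECs of the 3 Hmox2+/+ mice and 323, 428 and 341 CPM in those of the 3 Hmox2-/- mice. Every Hmox2-/- library was above every Hmox2+/+ library, and Hmox2+/+ 3 was the nearest to the Hmox2-/- libraries. On the log2 scale the difference was 1.09 (SE 0.31), with an edgeR adjusted p of 0.0482. This call was close to the threshold, and it held without Hmox2+/+ 3 (1.5, adjusted p = 0.00915) but not without any other library: the edgeR adjusted p was 0.132 without Hmox2+/+ 1, 0.0869 without Hmox2+/+ 2, 0.0830 without Hmox2-/- 1, 0.131 without Hmox2-/- 2 and 0.120 without Hmox2-/- 3.

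In heart, Cxcl12 was 127, 105, 93.7 and 89.0 CPM in Hmox2+/+ mice and 110, 105 and 109 CPM in Hmox2-/- mice. The Hmox2-/- libraries lay within the range of the Hmox2+/+ libraries. The fitted log2 difference was 0.06 (SE 0.12, edgeR adjusted p = 0.743). On the TPM scale, which is not TMM-normalized, the same hearts were 18.1 to 25.5 TPM in Hmox2+/+ mice and 27.0 to 28.7 TPM in Hmox2-/- mice and did not overlap. The direction in heart was not stable, with a log2 fold change of -0.01 without Hmox2+/+ 4.

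The genotype difference of Cxcl12 was itself compared between the tissues in 1 model over all 13 libraries, which treats them as independent although the tissues may share mice. The interaction, the log2 fold change in heart less that in ECs, was -0.99 (SE 0.34) with an edgeR adjusted p of 0.0396, and Cxcl12 was the 1 member that passed. Among 15938 genes, 12.7% passed this test as lower in heart than in ECs and 16.2% as higher. The call was kept in 3 of the 13 fits that left out a library, without EC Hmox2+/+ 3 (adjusted p = 0.00103), EC Hmox2-/- 1 (0.0387) and heart Hmox2+/+ 4 (0.0437). In the other fits the edgeR adjusted p was 0.0843 without EC Hmox2+/+ 1, 0.0675 without EC Hmox2+/+ 2, 0.0940 without EC Hmox2-/- 2, 0.0580 without EC Hmox2-/- 3, 0.0729, 0.0626 and 0.0513 without heart Hmox2+/+ 1, 2 and 3, and 0.0709, 0.0811 and 0.0576 without heart Hmox2-/- 1, 2 and 3.

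The transcripts of Cxcl12 shown above did not move together in ECs. Cxcl12-202, the alpha form, was 91.9, 55.1 and 144 CPM in Hmox2+/+ mice and 282, 372 and 300 CPM in Hmox2-/- mice. Cxcl12-201, the gamma form, was 46.4, 50.2 and 98.8 CPM in Hmox2+/+ mice and 26.8, 41.6 and 24.6 CPM in Hmox2-/- mice. For both forms the genotypes did not overlap, with the alpha form higher and the gamma form lower in Hmox2-/- mice. In an edgeR fit across 37705 transcripts, chosen after these values were seen, the alpha form passed at 1.71 on the log2 scale (SE 0.35, adjusted p = 0.0436), where 2.97% of all transcripts passed as higher, and the gamma form had -1.07 (SE 0.35, adjusted p = 0.131). When each library was left out, the alpha form passed in 1 of 6 fits, without Hmox2+/+ 3 (edgeR adjusted p = 0.0342). In the other fits its adjusted p was 0.0714 to 0.141.

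Of the Cxcl12 estimated counts in ECs, the alpha form took 56.1% ± 5.31 (SD, n = 3) in Hmox2+/+ mice and 87.0% ± 1.36 (n = 3) in Hmox2-/- mice. The gamma form took 38.6% ± 7.62 and 8.38% ± 1.27. The 2 shares are nearly complementary, so they carry 1 difference and not a pair of them. The exact permutation test gave p = 0.1 for each share (two-sided, n = 3 and 3), which is the smallest p that 3 against 3 libraries allow. As a share of TPM, which corrects for the length of the gamma transcript, the alpha form took 78.5% ± 2.81 and 94.3% ± 0.911. The beta form, Cxcl12-203, took at most 5.67% of the counts in any library and rounded to 0 counts in 4 of the 13 libraries.

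In heart the gamma form dominated in both genotypes, with 82.0% to 90.7% of the Cxcl12 counts in Hmox2+/+ mice and 84.5% to 91.0% in Hmox2-/- mice, while the alpha form took 7.79% to 10.8% and 7.76% to 10.2%. The genotypes overlapped for both forms (exact permutation p = 0.8 for each, two-sided, n = 4 and 3). As a share of TPM, the gamma form took less, 62.9% to 76.4% in Hmox2+/+ and 67.2% to 76.9% in Hmox2-/- hearts. The alpha form then took 21.0% to 26.5% and 21.0% to 26.1%. Kallisto divides reads that fit several transcripts by a model, and no estimate of that division's error was used here.

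**Figure D2:**
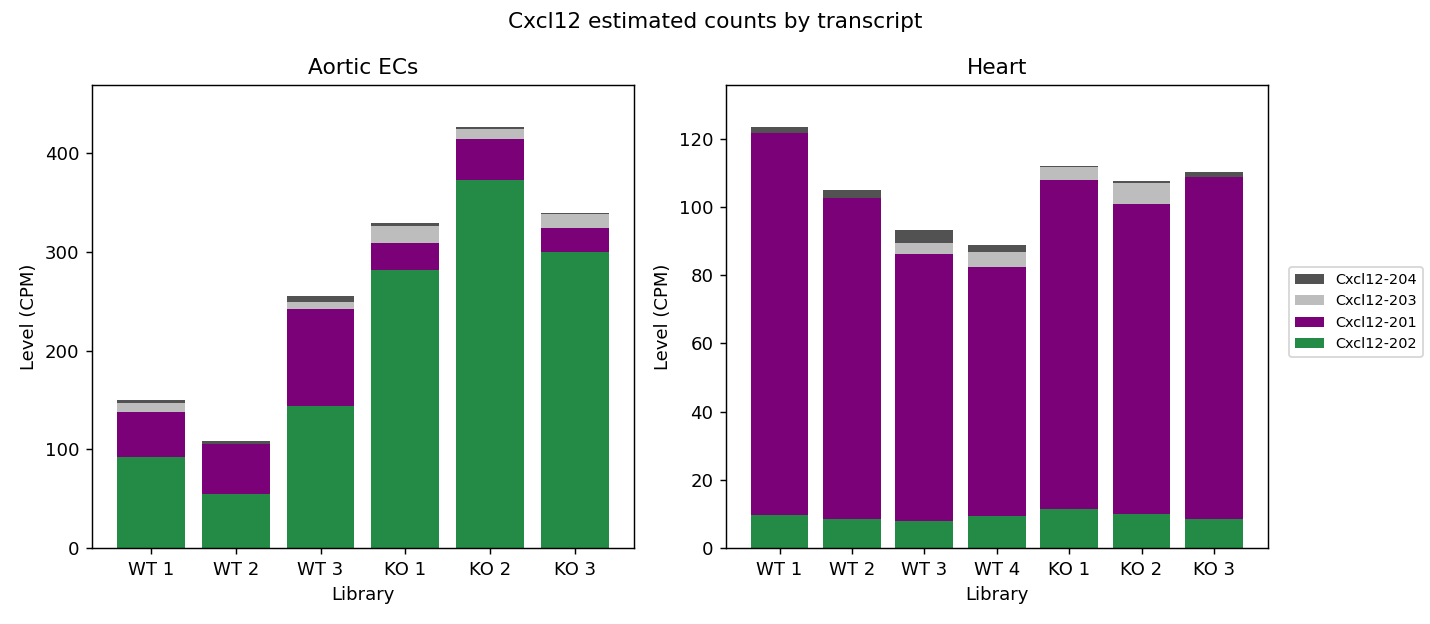
Cxcl12 level in CPM by library (bars), divided by transcript, in aortic ECs (left) and heart (right; the scales differ). The alpha form Cxcl12-202 is 55.1 to 144 CPM in ECs of Hmox2+/+ mice and 282 to 372 CPM in those of Hmox2-/- mice, and the gamma form Cxcl12-201 makes up most of each heart bar.

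Markers of several other cells also differed between the genotypes in ECs. The summed CPM of 10 cardiomyocyte markers was 124 to 478 in ECs of Hmox2+/+ mice and 10.9 to 13.6 in ECs of Hmox2-/- mice, with 9 of 10 markers passing as lower. That of 5 mesothelial markers was 32.1 to 152 and 5.13 to 6.29, with 4 of 5 passing as lower. Smooth muscle markers summed to 3294 to 6440 and 1063 to 3636 CPM (3 of 7 passing as lower), fibroblast markers to 3746 to 6442 and 7316 to 8245 CPM (3 of 9 passing as higher, 1 as lower), and endothelial markers to 3143 to 4586 and 5467 to 6722 CPM (4 of 10 passing as higher, 1 as lower). The smooth muscle sums overlapped between the genotypes. So did the adipocyte sums, at 8393 to 12760 CPM in Hmox2+/+ and 9734 to 10180 CPM in Hmox2-/- mice. Pericyte sums overlapped as well, at 286 to 531 and 253 to 328 CPM. The part of these cells in the Cxcl12 level or in its transcript shares was not tested.

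Ackr3, the scavenging receptor of Cxcl12 (chromosome 1, 90131689 to 90144473, plus strand), was 49.2, 45.2, 47.1 and 46.7 CPM in hearts of Hmox2+/+ mice and 75.0, 82.9 and 79.6 CPM in hearts of Hmox2-/- mice. The groups did not overlap. The log2 fold change was 0.75 (SE 0.09, edgeR adjusted p = 0.000168), and Ackr3 passed in all 16 alternative fits in heart, with an adjusted p of at most 0.00946. In ECs it was 161, 132 and 172 CPM in Hmox2+/+ mice and 209, 226 and 207 CPM in Hmox2-/- mice. These did not overlap either, but the difference of 0.46 on the log2 scale (SE 0.14) had an adjusted p of 0.0533 and passed in 4 of 15 alternatives, 1 of them without Hmox2+/+ 3 (0.0353). The difference between the tissues did not pass (interaction 0.33, SE 0.15, adjusted p = 0.116), though it did without EC Hmox2+/+ 2 (0.43, adjusted p = 0.0372).

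Markers of other cells also differed between the genotypes in heart. From Hmox2+/+ to Hmox2-/- mice, the summed CPM of 5 mesothelial markers went from a range of 25.5 to 30.6 to one of 43.0 to 72.5 (4 of 5 passing as higher), that of 10 endothelial markers from 522 to 629 to 685 to 713 (3 of 10 passing as higher, 1 as lower) and that of 5 pericyte markers from 780 to 906 to 621 to 746 (3 of 5 passing as lower). None of these sums overlapped between the genotypes. The macrophage and erythroid sums in heart, given further on, were also higher in Hmox2-/- mice without overlap. The part of any of these cells in the heart levels of Ackr3, and of Cx3cl1 described further on, was not tested.

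Cxcr4, the signalling receptor (chromosome 1, 128515936 to 128520044, minus strand), was low and scattered. In ECs it was 4.58, 17.3 and 8.13 CPM in Hmox2+/+ mice and 4.53, 4.18 and 8.53 CPM in Hmox2-/- mice, and in heart 3.27, 4.12, 3.47 and 3.22 CPM against 6.32, 2.54 and 3.77 CPM. The groups overlapped in both tissues. On the log2 scale the difference was -0.80 (SE 0.49, edgeR adjusted p = 0.282) in ECs and 0.25 (SE 0.27, adjusted p = 0.507) in heart. Without Hmox2+/+ 2, the highest EC library, the EC value was -0.15, and without Hmox2-/- 1 the heart value was -0.17.

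Compared per length, the ligand and its scavenger were abundant and Cxcr4 was not. In ECs of Hmox2+/+ mice Cxcl12 was 77.7 ± 42.9, Ackr3 60.1 ± 12.8 and Cxcr4 7.64 ± 5.46 TPM (mean ± SD, n = 3). In hearts of Hmox2+/+ mice they were 21.5 ± 3.68, 15.8 ± 1.62 and 2.65 ± 0.560 TPM (n = 4). In TPM, the group means for Cxcl12 were highest in ECs of Hmox2-/- mice (205 ± 10.7 TPM), then in ECs of Hmox2+/+ mice. Hearts of Hmox2-/- mice (27.6 ± 0.962 TPM) and then hearts of Hmox2+/+ mice followed, with no overlap between neighbours. Ackr3 had the same order, and there the EC groups overlapped, with 51.2 to 74.8 TPM in Hmox2+/+ and 74.1 to 83.7 TPM in Hmox2-/- mice. For Cxcr4 every neighbouring pair of groups overlapped. TPM is not TMM-normalized, and TMM factors fitted over all libraries were 1.16 to 1.43 in ECs and 0.70 to 0.89 in hearts. These orders across tissues therefore hold for TPM and need not hold after TMM normalization. In TMM-normalized CPM, Cxcl12 overlapped between the heart genotypes (89.0 to 127 CPM in Hmox2+/+ and 105 to 110 CPM in Hmox2-/- mice).

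**Figure D3:**
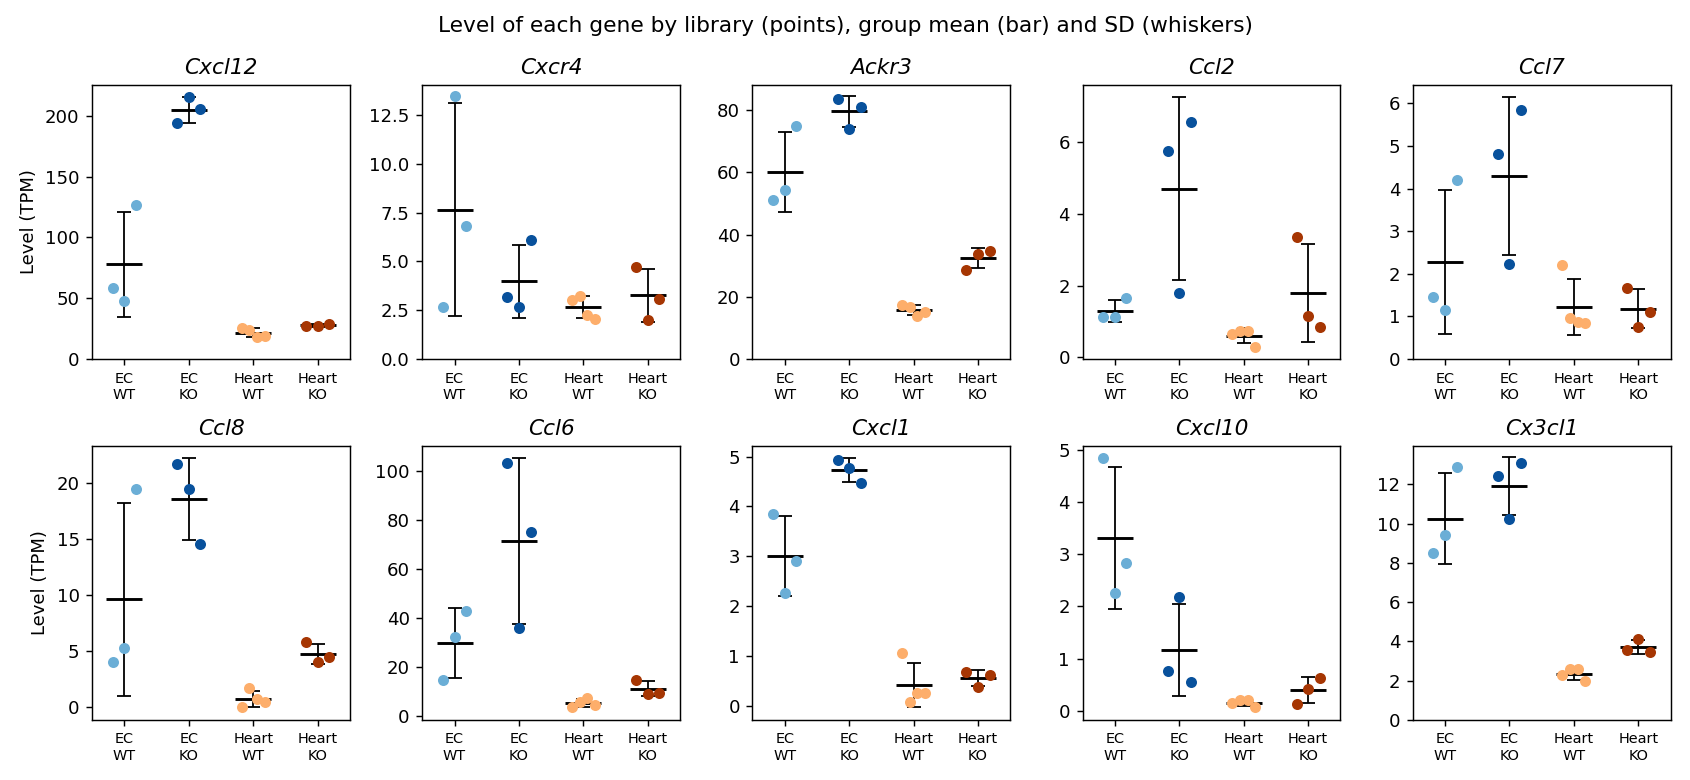
TPM of each gene in every library (points), with the group mean (bar) and SD (whiskers), for ECs and hearts of Hmox2+/+ (WT) and Hmox2-/- (KO) mice; each panel has its own scale. Cxcl12 in ECs of Hmox2-/- mice is 194 to 215 TPM against 47.8 to 127 TPM in ECs of Hmox2+/+ mice, and every gene but Ccl2 has its highest 2 group means in ECs. TPM is not TMM-normalized, so an order across tissues holds for this scale only.

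Over the 13 libraries, taken as deviations from the tissue mean on the log2 CPM scale, the genes most like Cxcl12 were Clec14a (Pearson r = 0.968), App (0.964) and Tspan6 (0.961). Those most like Ackr3 were Manba (0.968), Zfp697 (0.959) and Trap1 (0.955), and those most like Cxcr4 were Tbc1d10c (0.900), Kif4 (0.899) and Rassf5 (0.891). These are the highest of 13350 genes compared, the points share libraries, depth and genotype, and the values are descriptions only.

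Genes that transmit or end the Cxcl12 signal showed no common direction. Of 10 such genes tested, 2 passed as higher and 2 as lower in ECs, and the same numbers did in heart, with medians of -0.07 and -0.02. Grk3, a kinase that turns off activated receptors, fell in both tissues, by a log2 fold change of -1.07 (SE 0.21, edgeR adjusted p = 0.0162) in ECs and -0.56 (SE 0.15, adjusted p = 0.0151) in heart. Arrb1, an arrestin that binds both receptors after activation, rose in ECs by 0.51 (SE 0.12, adjusted p = 0.0319). Gnai3, one of several inhibitory G protein subunits, rose in ECs by 0.49 (SE 0.12, adjusted p = 0.0348). In heart Arrb1 was -0.20 (adjusted p = 0.280) and Gnai3 -0.12 (adjusted p = 0.506). Dpp4, the protease that inactivates Cxcl12 by cutting its amino end, rose in heart by 0.66 (SE 0.15, adjusted p = 0.00887) and was -1.10 (SE 0.32, adjusted p = 0.0518) in ECs. The tissues differed for Dpp4 (interaction 1.80, SE 0.36, adjusted p = 0.00291). Cd74, a receptor chain for Mif, fell in heart (-0.80, SE 0.21, adjusted p = 0.0133). Mif, a further ligand of Cxcr4, passed as lower in ECs and higher in heart, but 36.7% of its 31-base words are found in other genes and its counts are uncertain. Fits with a library left out are given for the members only, and not for these genes or those of the lists below.

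Among the monocyte attractants, Ccl2 (chromosome 11, 81926397 to 81928279, plus strand) was 0.812, 0.668 and 0.896 CPM in ECs of Hmox2+/+ mice and 3.29, 1.23 and 3.86 CPM in ECs of Hmox2-/- mice. All Hmox2-/- libraries were higher, and Hmox2-/- 2 stood apart from the other two. The fitted log2 difference was 1.81 (SE 0.47, edgeR adjusted p = 0.0366), on 20 to 29 estimated counts per Hmox2+/+ library and 32 to 105 per Hmox2-/- library. The call was kept without Hmox2-/- 2 (2.17, adjusted p = 0.0235) and lost without Hmox2+/+ 1 (0.0881), Hmox2+/+ 2 (0.0916), Hmox2+/+ 3 (0.0559), Hmox2-/- 1 (0.0980) and Hmox2-/- 3 (0.133).

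In heart, Ccl2 was 0.446, 0.450, 0.571 and 0.248 CPM in Hmox2+/+ mice and 2.0, 0.665 and 0.449 CPM in Hmox2-/- mice. Hmox2-/- 1 was far above all other hearts, and Hmox2-/- 3 lay within the Hmox2+/+ range. The log2 fold change of 1.28 (SE 0.54) had an edgeR adjusted p of 0.0873, and it was 0.39 (adjusted p = 0.593) without Hmox2-/- 1 and 1.64 (adjusted p = 0.0234) without Hmox2-/- 3.

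Ccl7, the neighbour of Ccl2 on chromosome 11 (81936532 to 81938351, plus strand), was 1.03, 0.635 and 2.22 CPM in ECs of Hmox2+/+ mice and 2.69, 1.49 and 3.31 CPM in those of Hmox2-/- mice. The groups overlapped, and the log2 fold change was 0.94 (SE 0.52, edgeR adjusted p = 0.235). In heart it was 0.589 to 1.49 CPM in Hmox2+/+ and 0.423 to 0.969 CPM in Hmox2-/- mice, and the difference was -0.15 on the log2 scale (SE 0.43, adjusted p = 0.811). The heart value changed sign without Hmox2+/+ 1 (0.09) and without Hmox2-/- 2 (0.07).

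Ccl8, also on chromosome 11 (82006007 to 82007625, plus strand), had the largest fold change of the members tested in heart. It was 0, 0.554, 0.305 and 0.177 CPM in Hmox2+/+ mice and 1.79, 1.21 and 1.23 CPM in Hmox2-/- mice, from 0, 16, 8 and 5 estimated counts against 61, 40 and 41. The 0 comes from the shallow library Hmox2+/+ 1, where a count of 0 allows a level of up to 0.446 CPM, counting error alone considered. The groups did not overlap, and the log2 fold change was 2.17 (SE 0.47, edgeR adjusted p = 0.00591). The call was kept without each of the 7 libraries in turn (adjusted p 0.00563 to 0.0207), with a value of 2.01 without the shallow library and 2.75 without Hmox2+/+ 2.

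In ECs, Ccl8 was 1.55, 1.54 and 5.50 CPM in Hmox2+/+ mice and 6.48, 6.97 and 4.41 CPM in Hmox2-/- mice. Hmox2+/+ 3 was higher than Hmox2-/- 3, and the groups overlapped. The log2 fold change was 1.05 (SE 0.52, edgeR adjusted p = 0.188), and without Hmox2+/+ 3 it was 1.94 (adjusted p = 0.0111). The tissues did not differ by the test of the interaction (1.17, SE 0.76, adjusted p = 0.267).

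Ccl6 (chromosome 11, 83478708 to 83483913, minus strand) was 17.6, 27.7 and 36.3 CPM in ECs of Hmox2+/+ mice and 95.6, 43.8 and 70.4 CPM in ECs of Hmox2-/- mice. The groups did not overlap, with Hmox2-/- 2 nearest to the Hmox2+/+ libraries. On the log2 scale the difference was 1.36 (SE 0.34, edgeR adjusted p = 0.0325). It passed without Hmox2+/+ 3 (0.0247) and without Hmox2-/- 2 (0.0289), and not without Hmox2+/+ 1 (0.0780), Hmox2+/+ 2 (0.0763), Hmox2-/- 1 (0.0829) or Hmox2-/- 3 (0.0983).

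In heart, Ccl6 was 3.27, 4.78, 8.84 and 4.74 CPM in Hmox2+/+ mice and 13, 8.41 and 7.93 CPM in Hmox2-/- mice. Hmox2+/+ 3 lay above 2 of the Hmox2-/- libraries. The fitted log2 difference was 0.80 (SE 0.28, edgeR adjusted p = 0.0441). The call was kept without Hmox2+/+ 3 (1.14, adjusted p = 0.00863) and Hmox2-/- 3 (0.0260), and lost without Hmox2+/+ 1 (0.0890), Hmox2+/+ 2 (0.110), Hmox2+/+ 4 (0.110), Hmox2-/- 1 (0.161) and Hmox2-/- 2 (0.0688).

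The summed markers of macrophages and monocytes were also higher, though not every marker was. The summed CPM of 13 such markers was 543 to 708 in ECs of Hmox2+/+ mice and 892.7 to 1385 in ECs of Hmox2-/- mice, with 5 of 13 passing as higher and none as lower. In heart it was 166 to 241 and 258 to 430 CPM, again with 5 of 13 passing as higher and none as lower. By the sign of the log2 fold change, 10 markers were higher and 3 lower in ECs, and 8 were higher and 5 lower in heart. No marker was at 0 in a whole group. Hmox2-/- 1 had the highest sum in both tissues. In heart it also had the highest Ccl2, Ccl8 and Ccl6, while in ECs it had the highest Ccl6 but Ccl2 was highest in Hmox2-/- 3, and Ccl8 in Hmox2-/- 2, which had the lowest macrophage sum of the Hmox2-/- libraries. The part of macrophages in the levels of Ccl2, Ccl8 and Ccl6 was not tested.

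Cxcl1, a neutrophil attractant (chromosome 5, 91039094 to 91040974, plus strand), was 3.99, 1.70 and 1.98 CPM in ECs of Hmox2+/+ mice and 4.39, 4.52 and 3.72 CPM in ECs of Hmox2-/- mice. Hmox2+/+ 1 lay within the Hmox2-/- range. The log2 fold change was 0.72 (SE 0.36, edgeR adjusted p = 0.191), and without Hmox2+/+ 1 it was 1.19 (adjusted p = 0.0450). In heart Cxcl1 had 2 to 17 estimated counts per library, and the genotypes differed by 0.51 on the log2 scale (SE 0.62, adjusted p = 0.554). Without Hmox2+/+ 2 the heart value was 0.09.

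Cxcl10, the interferon-induced ligand (chromosome 5, 92494497 to 92496748, minus strand), was 5.06, 1.84 and 2.26 CPM in ECs of Hmox2+/+ mice and 0.673, 2.22 and 0.478 CPM in ECs of Hmox2-/- mice. Hmox2-/- 2 lay within the Hmox2+/+ range and the other two lay below it. On the log2 scale the difference was -1.44 (SE 0.65, edgeR adjusted p = 0.159), and it did not pass without any 1 library, with -2.39 (adjusted p = 0.0591) without Hmox2-/- 2 and -0.87 without Hmox2+/+ 1. Cxcl10 and Cxcr4 were the members with a negative value in ECs. In heart, Cxcl10 had 1 to 6 estimated counts per Hmox2+/+ library and 4 to 16 per Hmox2-/- library and was below the filter on low counts. Cxcl10 lies within the span of Art3 on the opposite strand, and 4.47% of its 31-base words are shared with it.

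Cx3cl1, the membrane-bound ligand (chromosome 8, 95498637 to 95509055, plus strand), was 7.73, 7.89, 7.35 and 7.01 CPM in hearts of Hmox2+/+ mice and 10.4, 11.6 and 8.89 CPM in those of Hmox2-/- mice. The groups did not overlap. The fitted log2 difference was 0.46 (SE 0.13, edgeR adjusted p = 0.0213). It passed without Hmox2+/+ 1 (0.0375), Hmox2+/+ 2 (0.0350), Hmox2-/- 1 (0.0406) and Hmox2-/- 3 (0.00675), and not without Hmox2+/+ 3 (0.0576), Hmox2+/+ 4 (0.0641) or Hmox2-/- 2 (0.108).

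In ECs, Cx3cl1 was 27.9, 23.3 and 32.4 CPM in Hmox2+/+ mice and 33.8, 34.6 and 35.1 CPM in Hmox2-/- mice. The genotypes did not overlap, though Hmox2+/+ 3 came close to the lowest Hmox2-/- library. The log2 fold change of 0.31 (SE 0.14) had an edgeR adjusted p of 0.153, and without Hmox2+/+ 3 it was 0.43 (adjusted p = 0.0483). The genotypes did not overlap in CPM for 5 of the 10 members in ECs (Cxcl12, Ackr3, Ccl2, Ccl6 and Cx3cl1), beside 40.7% of all genes tested, and for 3 of the 9 tested in heart (Ackr3, Ccl8 and Cx3cl1), beside 40.4%. These shares of members are near those of all genes.

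**Figure D4:**
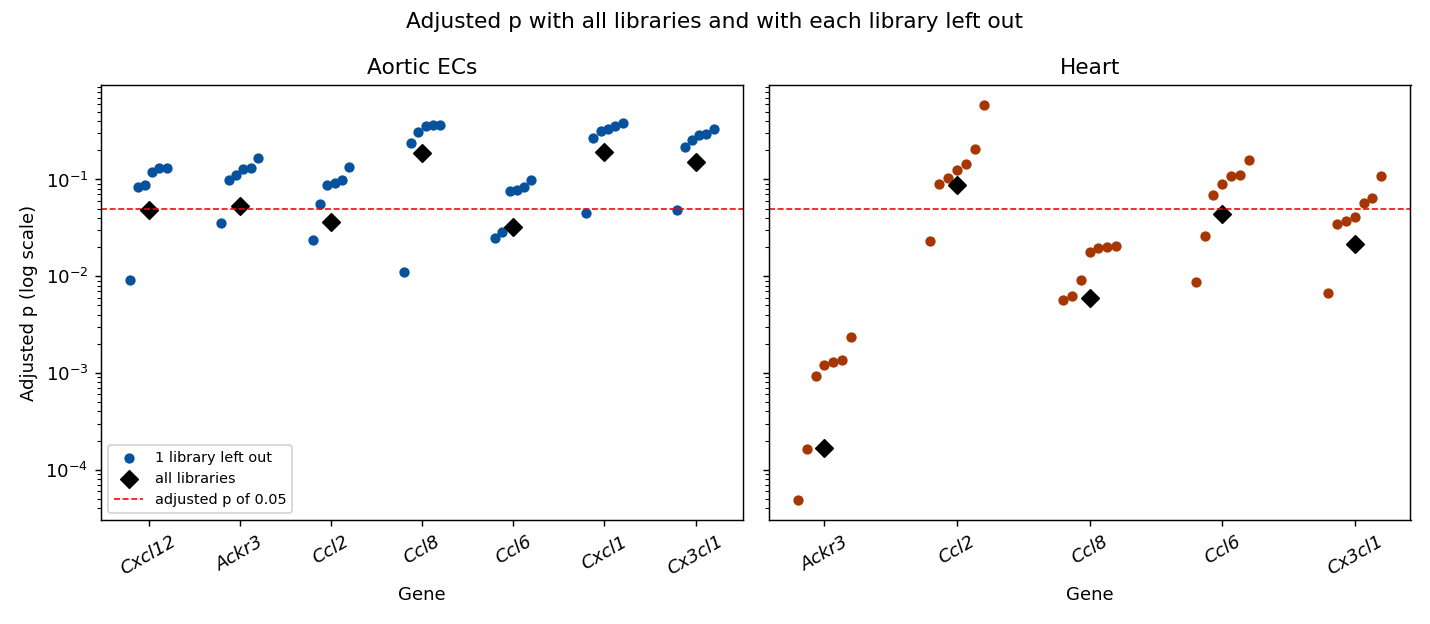
Adjusted p (log scale) of the members that passed in at least 1 of these fits, with all libraries (black diamonds) and with each library left out in turn (points), in aortic ECs (left) and heart (right); the dashed line is at 0.05. Ackr3 and Ccl8 stay below the line in heart in every fit, while Cxcl12 and Ccl2 in ECs stay below it with 1 of 6 libraries left out.

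Adam10 and Adam17 are the proteases that release Cx3cl1 from the membrane. Adam10 rose in ECs by a log2 fold change of 0.64 (SE 0.16, edgeR adjusted p = 0.0330) and fell in heart (-0.41, SE 0.11, adjusted p = 0.0147), and the tissues differed (interaction -1.01, SE 0.19, adjusted p = 0.00236). Adam17 fell in heart (-0.64, SE 0.10, adjusted p = 0.00105) and was 0.15 (adjusted p = 0.334) in ECs.

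Of 32 further chemokine ligands, 17 were tested in ECs and 11 in heart. In ECs 3 passed as higher (Pf4, Ccl11 and Ccl9) and 1 as lower (Ccl27a), with a median of -0.32, below the median of all genes. In heart 4 passed as higher (Ccl21a, Cxcl16, Pf4 and Ppbp) and 2 as lower (Ccl27a and Ccl11), with a median of 0.78. Pf4, the platelet chemokine that macrophages also make, rose in both tissues, by 1.30 (SE 0.27, edgeR adjusted p = 0.0202) in ECs and 1.18 (SE 0.23, adjusted p = 0.00407) in heart. Ccl11, which attracts eosinophils, rose in ECs by 0.85 (SE 0.21, adjusted p = 0.0315) and fell in heart (-1.19, SE 0.29, adjusted p = 0.00963), and the tissues differed (interaction -2.01, SE 0.36, adjusted p = 0.00155). Ppbp, which is stored in platelets, rose in heart by 2.82 (SE 0.60, adjusted p = 0.00565). This fold change starts from a very low level, 0.090 ± 0.062 CPM in Hmox2+/+ against 0.80 ± 0.50 CPM in Hmox2-/- hearts (mean ± SD). In heart the summed CPM of 6 erythroid markers rose from a range of 183 to 341 to one of 888 to 1456 in Hmox2-/- mice (5 of 6 markers passing). The part of blood in the Ppbp difference was not tested. Ccl21a, Ccl27a and Cxcl16 share 80.4%, 57.4% and 77.2% of their 31-base words with other genes, so their values are uncertain.

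Of 22 further chemokine receptors, 16 were tested in ECs and 9 in heart. Ccr2, the receptor of Ccl2 and Ccl7 on monocytes, was the 1 that passed within a tissue. It rose in ECs, with a log2 fold change of 1.00 (SE 0.24, edgeR adjusted p = 0.0311), and was -0.41 (SE 0.37, adjusted p = 0.420) in heart, and the tissues differed (interaction -1.36, SE 0.47, adjusted p = 0.0425). The medians of the tested receptors were 0.32 in ECs and -0.26 in heart.

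Of 19 genes of chemokine induction (cytokines, receptors, transcription factors, an adaptor and inhibitors), 15 were tested in ECs and 14 in heart. Il1r1, the interleukin-1 receptor, rose in both tissues, by 1.11 (SE 0.20, edgeR adjusted p = 0.0135) in ECs and 0.52 (SE 0.16, adjusted p = 0.0268) in heart, and Tnfrsf1a, a tumour necrosis factor receptor, rose in heart by 0.44 (SE 0.13, adjusted p = 0.0236). Ifnar1, a chain of the type I interferon receptor, and the transcription factor Cebpb fell in ECs (-0.44, SE 0.10, adjusted p = 0.0285, and -1.33, SE 0.32, adjusted p = 0.0305). Hif1a, the oxygen-regulated factor that can induce Cxcl12 and Cxcr4, fell in heart (-0.86, SE 0.11, adjusted p = 0.000378) and was 0.20 (adjusted p = 0.283) in ECs. The list's medians were 0.16 in both tissues.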

How the data were processed

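RNA of 13 libraries was selected with oligo-dT, prepared with the strand kept and sequenced as 100 bp pairs. The authors made the deposited estimated counts and TPM values per transcript with Kallisto 0.44.0 at default settings, library by library, without normalization between libraries. Their methods name a GENCODE GRCm39 index, while the submitters' processing notes list mm10 and GRCh38.p13, so the index build is uncertain. Default Kallisto does not use strand.

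Transcripts were matched to GENCODE M39 without the version (115140 of 118489, 97.2%). The others, 0.755% to 1.01% of each library's counts, were not used. Estimated counts were summed per gene, rounded, filtered with filterByExpr (minimum count 10), TMM-normalized and tested with edgeR 4.0.16 (R 4.3.3) within each tissue, and with a tissue by genotype interaction over all libraries. The series is described as matched aortic and heart samples, so the tissues may share mice, but no label ties an EC library to a heart library, and all libraries were treated as independent in the interaction test. In simulated libraries, 200 genes that were not low in counts were given a log2 change of 2. The fit called 170 of them in ECs (15026 genes), 200 in heart (13577 genes) and 166 for the interaction (15614 genes). It also called 5, 11 and 7 unchanged genes. Most members had smaller differences and some had low counts, so these rates do not give the power for the members. The transcript fit, tested on transcripts in the same way, called 57 in ECs and 74 in heart and misses many changes. The common biological variation between mice (BCV) came to 0.241 for ECs and 0.149 for hearts. Exact permutation tests used scipy 1.17.1, and figures matplotlib 3.10.9. The correlations used log2(CPM + 0.5).

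The members and gene lists were chosen with earlier results of these data known. Every member is named. Of the other lists, genes with an adjusted p of at most 0.05 in either tissue may be named, and for Cxcl12, Cxcr4 and Ackr3 the 3 genes with the highest correlation. Alternatives were DESeq2 1.42.0, upper-quartile factors, no filter, length-scaled TPM, a length and GC offset, leaving out mitochondrially encoded genes, a block for the replicate number, a single fit of all libraries, and leaving out each library.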

Additional observations from a re-analysis of the deposited data

Results flagged for a closer look

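The Cxcl12 interaction of -0.992829 (log2 fold change in heart less that in ECs) is listed because the test of the difference itself passed, with an edgeR adjusted p of 0.0396. Over its 21 alternatives the adjusted p was 0.00103 to 0.0940, and it passed in 9 of them. Ccl7 in hearts of Hmox2+/+ mice is listed because 1 of the 4 libraries, the shallow Hmox2+/+ 1 with 10 estimated counts, stood at 1.487 CPM, apart from the other 3 at 0.589 to 0.647 CPM. Without it the log2 fold change of Ccl7 in heart was 0.09 in place of -0.15. Chance alone lists about 1 in 20 such groups, and 12 were examined.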

How the results depend on the processing

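Of 503 values of single members under the alternatives, 436 kept their direction and their side of the threshold, 46 lost a call, 10 gained one and 11 changed sign. Leaving out a library also leaves fewer samples to fit, and over all genes it took the EC calls from 2766 to as few as 638.

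The number of members called in ECs (3 of 10) was 0 to 5 when each library was left out, and the number called in heart (4) was 2 to 5. In heart it was 2 with length-scaled TPM, where Cx3cl1 and Ccl6 were lost, and 1 (Ccl8) when a log2 fold change of at least 1 was also asked for. The number called for the interaction (1) was 0 to 1 when each library was left out and 0 with a log2 fold change of at least 1. The member called with a library left out was not always Cxcl12: it passed in 3 such fits, Ackr3 in 1 and Cxcl10 in 1 (edgeR adjusted p = 0.0228). With all libraries the Cxcl10 interaction was 2.35 (SE 1.01, edgeR adjusted p = 0.0948). Cxcl12 in ECs was lost with the length and GC offset (adjusted p = 0.0542), and Ccl6 in heart likewise (0.106) and with all libraries in 1 fit (0.0982). The cause was not tested.

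No label says whether libraries of the same replicate number belong together. Deviations of same-numbered libraries correlated weakly, at 0.18, 0.04 and 0.09 in ECs and -0.03, 0.08 and 0.04 in heart. Not every library correlated best with its own number. With so few libraries, these values cannot exclude a pairing. With the replicate block 3 members were called in ECs, 1 in heart (Ackr3; Ccl8 had an adjusted p of 0.0581, and 0.108 with the length and GC offset as well) and 0 for the interaction, where Cxcl12 had an adjusted p of 0.0502, and with the block and the length and GC offset 2, 1 and 0.

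Changes of sign were seen only in values that had passed no test. With the replicate block Cxcl12 in heart was -0.0017, and with the block and the length and GC offset Cxcr4 in heart was -0.13 and the interactions of Cx3cl1 and Ccl8 were -0.090 and -0.23. With the length and GC offset alone the Cx3cl1 interaction was -0.041. With each library left out, Cxcl12 in heart was -0.013 to 0.16, Cxcr4 in heart -0.17 to 0.51, Ccl7 in heart -0.55 to 0.094 and the Cxcl1 interaction -0.65 to 0.26. The alpha form's share of Cxcl12 in ECs was 28.3 to 33.6 percentage points higher in Hmox2-/- mice when each library was left out, and the gamma form's share was -34.0 to -26.4 points. In heart these ranges were -0.33 to 0.91 and -1.31 to 2.0 points.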
